A study of Mus musculus with 3 samples.

Results

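RNAs recovered in Malat1 RIA-seq were compared, class by class, with those from Actb RIA-seq in mouse embryonic stem (ES) cells. RIA-seq purifies 1 chosen RNA from fixed cells with antisense oligonucleotides and sequences what comes with it. Both libraries came from E14 cells, a 129/Ola embryonic stem cell line, for which the labels name no genetic change and no treatment other than the oligonucleotides. The cells were crosslinked with glutaraldehyde, lysed, sonicated, hybridized to the oligonucleotides and collected on streptavidin beads. Oligonucleotides against Malat1 gave Malat1 RIA-seq, and oligonucleotides for the β-actin mRNA (Actb) served for the control. Each condition had 1 library, as had Tfrc RIA-seq (oligonucleotides against the transferrin receptor mRNA). The values of Tfrc RIA-seq are set beside the others and were used to choose only the results flagged for a closer look. No spread between replicates could be measured, so no test between the conditions was made, and intervals cover counting error only. The protocols mention no molecular identifiers, so reads are not independent molecules.

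Malat1 is a long noncoding RNA (lncRNA) that is mostly nuclear and gathers in nuclear speckles, the bodies that store splicing factors. Its neighbour Neat1 builds paraspeckles. Small nucleolar RNAs (snoRNAs) guide the modification of ribosomal RNA and are mostly cut from introns of host genes. 7SK holds the elongation factor P-TEFb inactive, and RNase P and RNase MRP are ribonucleases with an RNA subunit. Replication-dependent histone mRNAs are short, lack introns and end in a stem-loop in place of a poly(A) tail, whereas the mRNAs of the mitochondrial genome are made and translated inside mitochondria.

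A gene could have 2 counts, one in a row with its Ensembl identifier (here Ensembl-ID counts) and one in a row whose reference was named Genome (here Genome counts), and the kinds were analysed separately. The fold divided the share of the library total in Malat1 RIA-seq by that in the control. Genes needed 10 counts or more in each library, which left 13244 of the 22073 genes with Ensembl-ID counts in either library and 8297 of 19658 with Genome counts. The series lists 24080 and 21733 genes over all 3 libraries. The minimum removed genes unevenly. Among Genome counts, 3821 genes reached 10 in Malat1 RIA-seq alone and 115 in Actb RIA-seq alone, and among Ensembl-ID counts these numbers were 1640 and 336. SNORA79, with 10 and 50 Ensembl-ID counts in the control and in Malat1 RIA-seq, was just inside the limit, and Sox2ot, with 8 and 60, was just outside.

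The libraries held 10405209 counts (Actb), 10078439 (Malat1) and 14553941 (Tfrc), so that 3 counts, the smallest number read as a signal, was 0.206 to 0.298 CPM (counts scaled to a library total of 1e+06). All 16 ES cell markers had 10 or more Ensembl-ID counts in both libraries, with a summed level of 3695 CPM in the control and 4517 in Malat1 RIA-seq. The summed levels of the endoderm, mesoderm, neural, fibroblast and trophoblast lists lay between 1.06 and 18.95 CPM in these 2 libraries. Sox1, Mesp1, Foxa2, Postn and Twist2 had no count in either of these 2 libraries. Lars2, a mitochondrial tRNA synthetase gene, took 32.0% of the control and 17.0% of Malat1 RIA-seq, and the 10 genes with the most counts in each library held 52.7% and 23.6%, respectively. The counts of such genes enter the total by which every gene is divided.

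Most values are therefore given as relative folds, in which the fold is divided by the median fold of the same kind of count, so that the median gene stands at 1. The median fold itself was 1.41 for Ensembl-ID counts (interquartile range 1.05 to 1.97) and 3.603 for Genome counts (2.70 to 4.56). The direction of both depended on the scaling. The Ensembl-ID median was 0.878 without the 10 genes with the most counts over both libraries and 0.781 after TMM scaling, and the Genome median was 2.24 and 1.99 under these and 0.994 with the total of Genome counts in place of the library total. Genes at a relative fold of 2 or more, or of 0.5 or less, were counted as high or low. Over all genes with Ensembl-ID counts, 8.33% were high (1103 genes) and 6.27% were low (830 genes). With Genome counts, 2.52% were high (209 genes) and 8.44% were low (700 genes). These shares are the background against which each class is read.

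The targeted RNAs were examined first. Malat1 (ENSMUSG00000092341, chromosome 19 from 5795690 to 5802671 of NCBIM37, minus strand, 1 merged exon) had 19076 Ensembl-ID counts in the control, 107387 in the Malat1 library and 102461 in the Tfrc library. The fold over the control was 5.81 (95% counting interval 5.72 to 5.90), a relative fold of 4.11. Malat1 was also high in Tfrc RIA-seq, at a relative fold of 3.03, and over Tfrc RIA-seq its fold in Malat1 RIA-seq was 1.51. Actb (ENSMUSG00000029580, chromosome 5 from 143664794 to 143668433, minus strand, 5 merged exons) had 759734 counts in its own library, 8942 in Malat1 RIA-seq and 13430 in the Tfrc library. Its relative fold of 0.00859 describes the target of the control library. Actg1, the closely related γ-actin gene, had 58380, 2913 and 3795 counts in the same order (0.0364), and no other actin gene passed the limit of 10 counts.

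**Figure D1:**
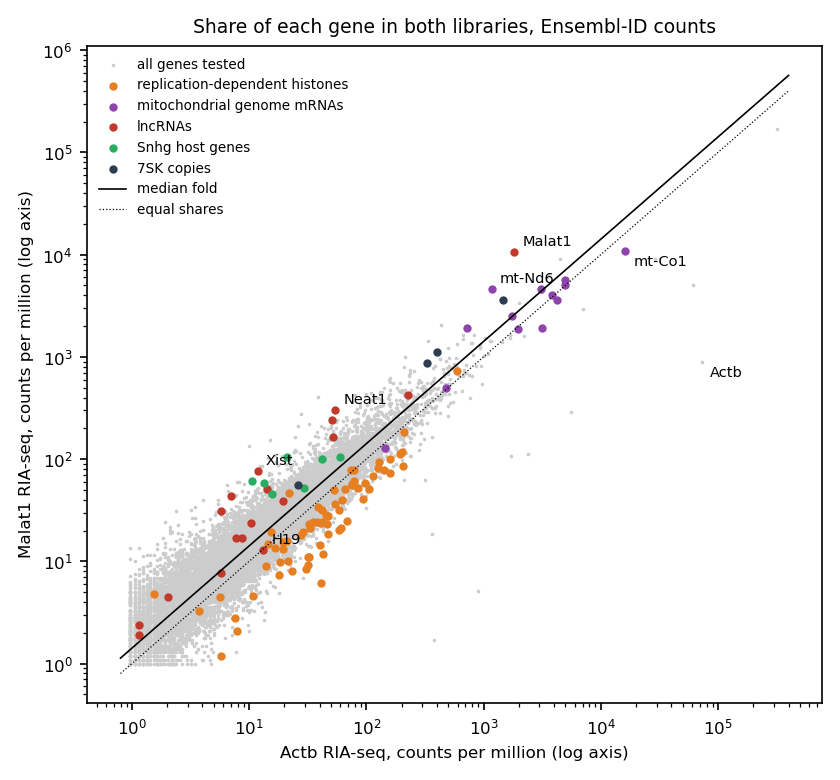
Ensembl-ID CPM in Actb RIA-seq (x axis) and Malat1 RIA-seq (y axis), both on log axes, for the 13244 genes past the count limit. Grey points are all genes, coloured points are 5 RNA classes, the solid line is the median fold of 1.41 and the dotted line marks equal shares. The lncRNA, Snhg and 7SK points lie mostly above the solid line and the histone points mostly below it.

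Among the classes with 10 or more genes past the limit, lncRNAs had the highest median of Ensembl-ID counts. Of 32 lncRNAs listed by symbol, 18 had enough Ensembl-ID counts. Of these, 8 were high (44.4%, beside 8.33% over all genes), Malat1 as the targeted RNA among them, and none was low. Above the median gene were 16, and the median relative fold was 1.58 (range 0.688 to 4.55). The highest was Xist, the RNA that coats the inactive X chromosome, with 123 counts in the control, 767 in Malat1 RIA-seq and 1003 in the Tfrc library (fold 6.44, 5.32 to 7.79). Tsix, its antisense partner, had 73, 439 and 355 counts (fold 6.21, 4.85 to 7.95). The 2 genes overlap on opposite strands and the sources used here do not state whether counting used the strand, so their reads cannot be told apart. Neat1 had 562, 3033 and 2174 counts in the same order (fold 5.57, 5.09 to 6.10), close to the fold of Malat1 itself. In all 3 of these genes the control library was the lowest. In Tfrc RIA-seq over the same control the median of the 18 lncRNAs was 1.545, close to the value in Malat1 RIA-seq. For lncRNAs and snoRNA host genes together the median in Malat1 RIA-seq was 1.70 (12 high of 25). Without Malat1 it was 1.65 (11 high of 24).

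The maternally expressed lncRNAs of the imprinted Dlk1-Dio3 region on chromosome 12 were high together. Meg3 had 533 counts in the control, 2446 in Malat1 RIA-seq and 2122 in the Tfrc library (fold 4.74, 4.31 to 5.203). Mirg, the host of a large microRNA cluster, had 60, 313 and 297 (fold 5.39, 4.09 to 7.10), and Rian, a host of many snoRNAs, had 537, 1664 and 1657 (fold 3.199, 2.90 to 3.53). Their relative folds were 3.35, 3.81 and 2.26. H19, an imprinted lncRNA on chromosome 7, did not share this level, with 138, 130 and 217 counts and a relative fold of 0.688.

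The other members lay between these values. Mir17hg, the host transcript of the miR-17~92 cluster, had 149 counts in the control, 517 in Malat1 RIA-seq and 405 in the Tfrc library, a relative fold of 2.53. Pvt1 stood at 1.602, Gt(ROSA)26Sor at 1.56, Dleu2 at 1.54, Miat at 1.46, Tug1 at 1.41, Znrd1as at 1.39, Gas5, a snoRNA host, at 1.34, Nphs1as at 1.16 and Crxos1 at 0.937. The annotation types Crxos1 and Znrd1as as protein coding. Miat and Nphs1as rest on 12 control counts each, and Gt(ROSA)26Sor on 21. The intervals of the fold of these genes (1.03 to 4.13, 0.793 to 3.37 and 1.32 to 3.71) and of Crxos1 (0.945 to 1.86) include the median fold of 1.41. Of the 14 members outside the limit, Nespas (8 and 88 counts) and Sox2ot (8 and 60) had 10 or more counts in Malat1 RIA-seq alone, and Dnm3os (27 and 0) in the control alone.

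All 7 snoRNA host genes (Snhg) that passed the limit were above the median gene in Ensembl-ID counts. Of these, 4 were high (57.1%, beside 8.33% over all genes). Snhg4 had 111 counts in the control and 611 in Malat1 RIA-seq, with 360 in Tfrc RIA-seq (relative fold 4.02). Snhg11 had 221, 1065 and 1128 (3.52), Snhg7 had 139, 589 and 474 (3.09), and Snhg12 had 162, 462 and 527 (2.08). The remaining Snhg1, Snhg3 and Snhg5 stood at 1.70, 1.26 and 1.24. Snhg9 was left out with 3 and 10 counts. The class median was 2.08, and 1.83 in Tfrc RIA-seq over the same control.

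By the annotated gene type, 348 lincRNA genes passed the limit, of which 120 (34.5%) were high and 6 were low, with a median relative fold of 1.57. Genes typed as processed transcripts, 225 in number, had a median of 1.37 with 57 high and 8 low. The type misc_RNA, with 70 genes, had the highest median of these types, 1.81, with 24 high (34.3%) and 5 low. It holds the 4 copies of 7SK and the 3 structural RNAs described next, and most of its other genes have clone names only. Protein-coding genes stood at 0.996 with 7.12% high, and pseudogenes at 0.759 with 24.2% low. The lincRNA median was 1.06 below 3 CPM (102 genes) and 2.75 above 100 (14 genes), and the intermediate bins stood at 1.58 to 1.99. In Tfrc RIA-seq over the same control the lincRNA median was 1.51.

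**Figure D2:**
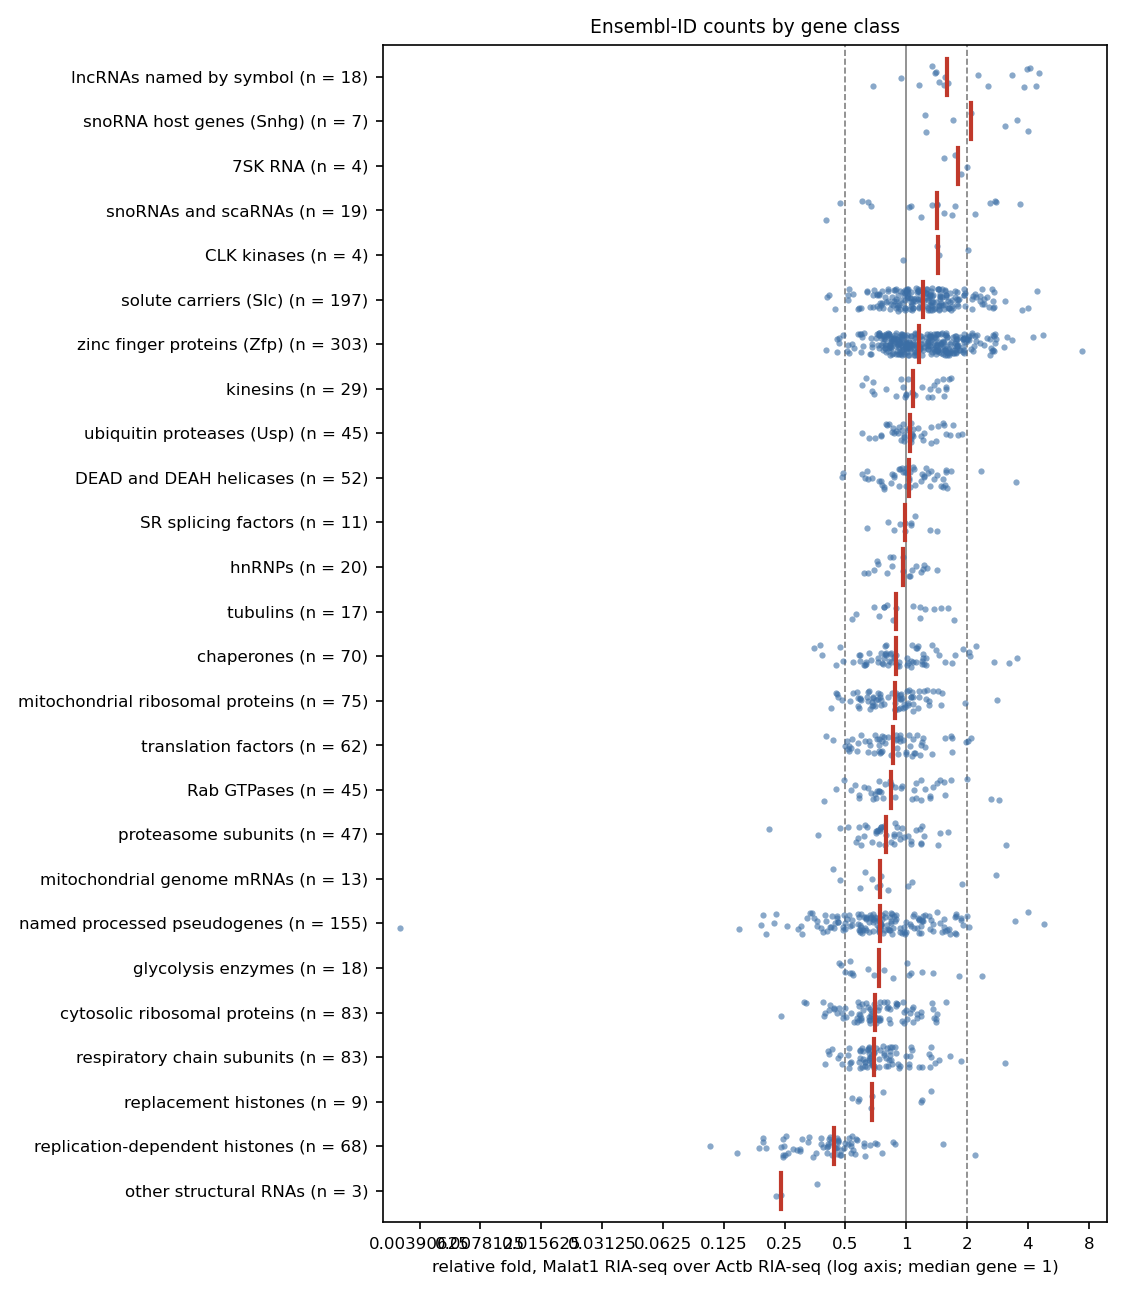
Relative fold of Ensembl-ID counts (log x axis, median gene at 1) for the genes of 26 classes, with the number of genes in parentheses. Each point is a gene, the red bar is the class median and dashed lines mark 0.5 and 2. Class medians run from 2.08 for Snhg genes to 0.239 for the other structural RNAs, and most families of mRNAs lie within 0.69 and 1.22.

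Among the small RNAs, the 4 copies of 7SK with enough counts were above the median gene, none of them at 2 or more. The copy on chromosome 9 had 15161 counts in the control, 36241 in Malat1 RIA-seq and 19789 in the Tfrc library, a relative fold of 1.75 (fold 2.47, 2.42 to 2.52). The copies on chromosomes X, 2 and 15 stood at 1.54, 1.86 and 1.99. All 4 are annotated as copies of the same RNA, so the split of reads between them is uncertain. Summed over all 59 listed copies, the counts were 23072 and 57103, with 32298 in Tfrc RIA-seq. In Tfrc RIA-seq over the control the 7SK median was 0.880, below the median gene.

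RNAs of 2 ribonucleases and of telomerase were low. Their median relative fold of Ensembl-ID counts was 0.239, and it was 0.411 in Tfrc RIA-seq over the same control. RNase MRP (listed as RNase_MRP) had 491 counts in the control, 161 in Malat1 RIA-seq and 314 in the Tfrc library, a relative fold of 0.239. RNase P (RNaseP_nuc, chromosome 8) had 74, 23 and 54 (0.227), and telomerase RNA (Telomerase-vert) had 85, 42 and 138 (0.361). A further RNase P locus had 19 and 3 counts and was outside the limit. RNase MRP was also low in Genome counts, where 18 and 15 counts gave 0.239.

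Of 170 snoRNA and scaRNA loci with Ensembl-ID counts, 19 passed the limit. Of these, 5 were high (26.3%, beside 8.33% over all genes), 2 were low (10.5%, beside 6.27%) and the median relative fold was 1.42. snoU89, inside Phb2, had 106 counts in the control, 399 in Malat1 RIA-seq and 285 in the Tfrc library (2.75), and SNORA79, inside Gtf2a1, had 10, 50 and 54 (3.65). Scarna2, which does not lie in another annotated gene, had 209, 115 and 196 counts and a relative fold of 0.402. Of the 4 copies of U3, the snoRNA of early ribosomal RNA cleavage, that lie in Tex14 and passed the limit, the relative folds were 1.06, 1.74, 2.59 and 2.77 on 10 to 20 control counts each. U3 and other members of repeated families may share reads between copies.

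More snoRNA reads were listed as Genome counts. Genome counts made up 74.6% of all snoRNA and scaRNA counts in the control, 83.6% in Malat1 RIA-seq and 87.8% in the Tfrc library, against 5.255%, 19.04% and 15.1% of all counts. Of 289 loci, 21 passed the limit, and 9 of them were above the median gene. Among the 21, 2 were high (9.52%, beside 2.52% over all genes) and 6 were low (28.6%, beside 8.44%). The largest was snoZ40, inside Taf1d, with 1147 counts in the control, 3488 in Malat1 RIA-seq and 9181 in the Tfrc library (relative folds 0.871 and 2.00). snoU83B, inside the ribosomal protein gene Rpl3, had 46, 507 and 243 counts and the highest relative fold, 3.16. The lowest was the Genome row of Scarna17, with 81, 59 and 175 counts (0.209).

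Some C/D box snoRNAs are shown because members of the same structural kind stood far apart in Genome counts. Capitals mark the exact C box letters TGATGA within the first 20 bases and the D box letters CTGA within the last 15, searched on the strand of the gene. The sequences were read from NCBIM37 at chr1:88252836-88252905 (minus), chr10:23506276-23506349 (minus), chr9:15119966-15120039 (plus) and chr11:62416581-62416652 (plus), in this order.
Snord82: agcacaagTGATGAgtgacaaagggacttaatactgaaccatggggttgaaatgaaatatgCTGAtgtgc
SNORD101: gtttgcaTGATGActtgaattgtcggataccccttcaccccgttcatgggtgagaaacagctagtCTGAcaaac
snoZ40: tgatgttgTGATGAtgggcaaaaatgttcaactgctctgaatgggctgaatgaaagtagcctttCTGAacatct
Snord49b: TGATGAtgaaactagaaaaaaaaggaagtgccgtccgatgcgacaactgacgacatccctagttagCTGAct
Of 1552 annotated snoRNA genes, 17.5% held both sets of letters at these places. Snord82, inside nucleolin (Ncl), had 10 counts in the control, 64 in Malat1 RIA-seq and 9 in the Tfrc library, a relative fold of 1.83. SNORD101, inside Rps12, had 12, 76 and 43 (1.82), and Snord49b had 39, 41 and 45 (0.301). SNORD45, inside Rabggtb, had 14, 102 and 97 (2.09) and no exact C box letters there, and snoU83B, the highest member, held neither set. Members with and without the letters thus stood above the median gene, but Snord82, SNORD101 and SNORD45 rest on 10 to 14 control counts. The counting intervals of Snord82 and SNORD101 include the median gene.

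Most of the 133 microRNA genes with Genome counts had too few. The limit was passed by 9, of which 3 were low (33.3%, beside 8.44% over all genes) and none was high. The miR-290 to miR-295 cluster on chromosome 7, the main microRNA cluster of mouse ES cells, supplied 6 of them. Mir292 had 46 counts in the control, 177 in Malat1 RIA-seq and 119 in the Tfrc library (relative fold 1.10), Mir295 had 10, 50 and 61 (1.43), and Mir293 had 17, 27 and 15 (0.455). Mir291a, Mir291b and Mir294 stood at 0.778, 0.708 and 0.599, and Mir290 had 2 and 17 counts. Mir5105, with 8785, 8374 and 12077 counts, held most of the counts of the class and stood at 0.273. In Ensembl-ID counts Mir692-2a and Mir692-2b were low at 0.448 and 0.331. A row with the symbol Mir706 (ENSMUSG00000090388) fell in the class by its symbol only, since the annotation types it as a lincRNA with 2 merged exons that overlaps Wnk1 and a separate Mir706 gene, and it had 50, 204 and 225 counts (2.98).

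Mir17hg had the highest relative fold of Genome counts among the lncRNAs. It had 78 Genome counts in the control, 1073 in Malat1 RIA-seq and 195 in the Tfrc library, a fold of 14.2 (11.3 to 17.9) and a relative fold of 3.94, against 0.625 in Tfrc RIA-seq. Its Ensembl-ID counts (149, 517 and 405) gave relative folds of 2.53 in Malat1 RIA-seq and 1.53 in the Tfrc library. No counts were listed separately for the microRNAs inside it. Mature microRNAs of the miR-17~92 and miR-290 to miR-295 clusters are shown because both loci are described here. They come from RefSeq (GRCm38.p6), and capitals mark the seed (bases 2 to 8).
miR-17-5p: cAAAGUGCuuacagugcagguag
miR-20a-5p: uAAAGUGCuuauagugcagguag
miR-18a-5p: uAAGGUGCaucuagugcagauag
miR-19a-3p: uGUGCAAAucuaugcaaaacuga
miR-19b-3p: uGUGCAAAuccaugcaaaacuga
miR-92a-3p: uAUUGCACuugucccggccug
miR-291a-3p: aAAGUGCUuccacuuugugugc
miR-294-3p: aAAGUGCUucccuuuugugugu
miR-295-3p: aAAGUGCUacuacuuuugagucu
miR-17-5p and miR-20a-5p share the seed AAAGUGC, miR-19a-3p and miR-19b-3p share GUGCAAA, and the 3 members of the ES cell cluster share AAGUGCU. Of 140 microRNA symbols listed in either library, 124 were found in the RefSeq table.

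The lncRNAs listed by symbol were also mostly above the median gene in Genome counts. Of 13 that passed the limit, Mir17hg included, 2 were high, none was low and 11 were above the median gene, with a median relative fold of 1.45. By annotated gene type this was not seen in Genome counts. The 155 lincRNA genes had a median of 0.965, with 8 high and 24 low (15.5%), and the 105 processed transcripts had 0.913, with 4 high and 17 low. Nespas, the antisense RNA of the Gnas region, had 20 counts in the control, 150 in Malat1 RIA-seq and 131 in the Tfrc library (2.15). Pvt1, with 913, 4998 and 4624, held the most counts (1.57). Tsix stood at 1.90, Meg3 at 1.86, Mirg at 1.77, Tug1 at 1.45, Rian at 1.28, Xist at 1.28, Sox2ot at 1.13, Airn at 1.06, Gt(ROSA)26Sor at 0.965 and Dleu2 at 0.935. Of these, the counting intervals of Tug1, Xist, Sox2ot, Airn, Gt(ROSA)26Sor and Dleu2 include the median gene. The 4 Snhg genes with enough Genome counts (Snhg3, Snhg4, Snhg5 and Snhg7) lay between 0.795 and 1.07, so the high folds of Snhg4 and Snhg7 were seen in Ensembl-ID counts and not in Genome counts. Malat1 had 5 and 22 Genome counts and Neat1 had 2 and 10, both under the limit.

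**Figure D3:**
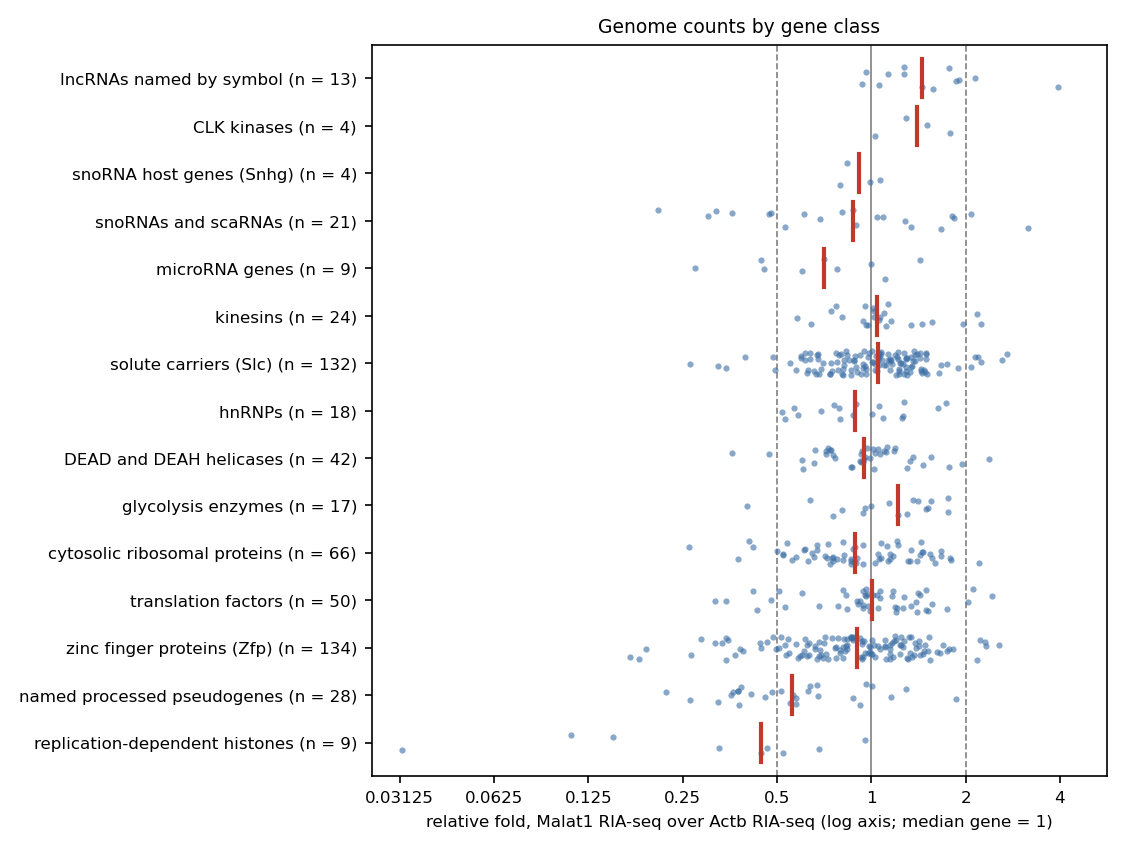
Relative fold of Genome counts (log x axis, median gene at 1) for the genes of 15 classes. Each point is a gene, red bars are class medians and dashed lines mark 0.5 and 2. lncRNAs (median 1.45) lie mostly to the right and replication-dependent histones (0.443) and pseudogenes (0.557) to the left.

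Replication-dependent histone mRNAs had the lowest median of Ensembl-ID counts among the classes with 10 or more genes past the limit. Of 70 listed, 68 passed the limit, and of these 46 (67.6%) were low, 1 was high and 2 were above the median gene, with a median relative fold of 0.438 (interquartile range 0.299 to 0.532). Their summed share was 4551 CPM in the control and 3145 in Malat1 RIA-seq, a fold of 0.691 (0.681 to 0.701), so the sum was also lower without division by the median fold. In Tfrc RIA-seq over the same control the median was 0.661.

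The core histone families differed in degree. The 13 genes for H3 had a median relative fold of 0.246 with 12 low. The 18 genes for H2B stood at 0.414 (14 low), the 12 for H4 at 0.432 (8 low), the 20 for H2A at 0.507 (10 low), and the 5 for the linker histone H1 at 0.516 (2 low). Hist1h3f was lowest, with 424 counts in the control, 62 in Malat1 RIA-seq and 321 in the Tfrc library (0.107, counting interval of the fold 0.116 to 0.197). Hist1h3g had 443, 118 and 563 (0.195) and Hist2h2aa2 had 60, 12 and 83 (0.146). The exceptions were Hist1h3d, with 227, 472 and 413 counts (1.52), and Hist2h2be, with 16, 48 and 52 (2.19). Hist1h4d, with the most counts of the class (6121, 7251 and 10027), stood at 0.865. Many of these genes are near-identical in their coding sequence, so the split of reads between them is uncertain.

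The same class was low in Genome counts. Of 54 listed, 9 passed the limit, of which 6 were low and none was above the median gene (median 0.443). Hist1h4d had 379 Genome counts in the control, 42 in Malat1 RIA-seq and 301 in the Tfrc library (relative fold 0.0318), and Hist4h4, which was outside the limit, had 133, 4 and 32. With Tfrc RIA-seq as the control the median of Genome counts was 1.28 over 10 genes, so this direction depended on the control. The 9 replacement histones, whose mRNAs are mostly polyadenylated, had a median of 0.677, none low and none high. H3f3a and H3f3b, the genes for H3.3, had relative folds of 0.542 and 0.577, and H2afy2, for macroH2A2, stood at 1.32.

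The string of 16 bases found in the most histone 3′ ends is shown because the stem-loop defines this class, with the paired arms of 6 bases in capitals and the loop of 4 bases in lower case.
histone 3′ end: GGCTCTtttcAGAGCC
It was found by counting all strings of this length in annotated 3′ untranslated regions, on the transcript strand. Of 58 histone genes with such a region, 28 held exactly these letters, as did 1 other of the 20007 protein-coding genes with such a region (0.145% with the histones). The string was chosen as the most frequent in histone genes, so this contrast follows from the choice. Genes that held it had a median relative fold of 0.451 (19 low of 28), and the 29 tested histone genes with an annotated region but without the exact letters had 0.410 (19 low).

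The 13 mRNAs of the mitochondrial genome had no Genome counts and a median relative fold of 0.741 in Ensembl-ID counts, with 1 high and 2 low. mt-Co1, for a subunit of complex IV and the one with the most counts, had 168729 counts in the control, 108820 in Malat1 RIA-seq and 296890 in the Tfrc library (relative fold 0.471). mt-Co3 had 32560, 19380 and 52207 (0.435). mt-Nd6, the only one encoded on the minus strand, had 12231, 46566 and 46326 and a relative fold of 2.78 (fold 3.93, 3.85 to 4.01). mt-Nd4l was next with 7481, 19303 and 21671 counts (1.88).

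The remaining mitochondrial mRNAs lay between mt-Nd1 at 0.593 and mt-Nd4 at 1.07. The summed share of all 13 was 46584 CPM in the control and 47183 in Malat1 RIA-seq, so that the total of the class was close to equal before division by the median fold (fold 1.01). In Tfrc RIA-seq the median relative fold over the same control was 1.54. mt-Nd6 was the highest and mt-Co3 the lowest of the 13 in both comparisons, which share the control library.

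**Figure D4:**
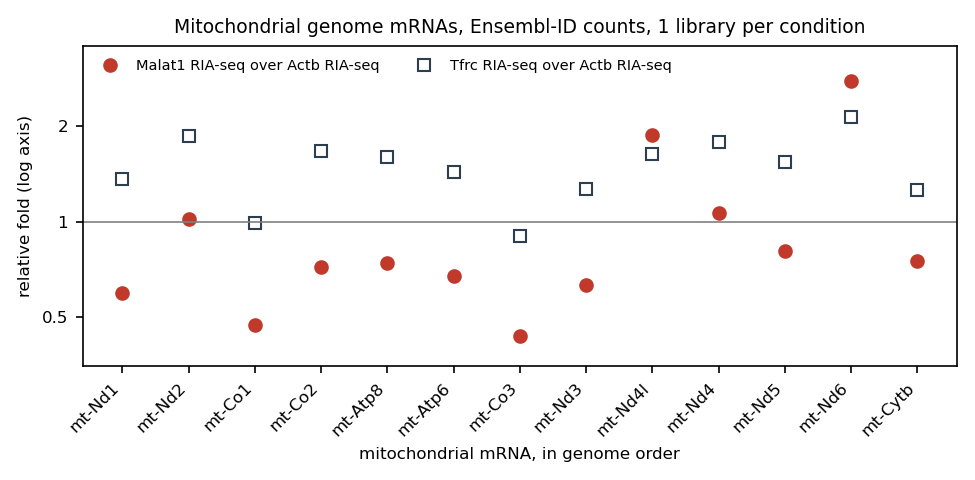
Relative fold (log y axis) of the 13 mitochondrial mRNAs in genome order for Malat1 RIA-seq (filled circles) and Tfrc RIA-seq (open squares), both over the same Actb RIA-seq library, 1 library each. In Malat1 RIA-seq 4 of the 13 lie above 1, with mt-Nd6 at 2.78 and mt-Co3 at 0.435.

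mRNAs of the ribosome and of energy metabolism stood below the median gene. The 83 cytosolic ribosomal protein genes had a median relative fold of 0.698, with 15 low (18.1%), none high and 16 above the median gene. Rplp1, for a stalk protein, had 1030 counts in the control, 337 in Malat1 RIA-seq and 931 in the Tfrc library (0.239), and Rpl4 had 14957, 14099 and 18304 (0.688). Rpl10l was highest at 1.57 with 348, 747 and 406 counts. As a class, their summed share was not lower, at 23934 and 26919 CPM (fold 1.12).

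The 83 nuclear-encoded subunits of the respiratory chain had a median of 0.696 with 7 low and 1 high. Atp5b of the ATP synthase had 7851, 6687 and 11552 counts (0.622), Cox7a2 of complex IV had 444, 240 and 441 (0.395), and Ndufa4l2, with 14 control counts, was at 3.08. The share of low genes, 8.43%, was close to the background of 6.27%, whereas 66 of the 83 were at or below the median gene. Glycolysis enzymes had a median of 0.736 (3 low and 1 high of 18), from Pfkl at 0.463 to Aldoc at 2.38, with Pkm2 at 1.01. Mitochondrial ribosomal proteins, at 0.882, had 5 low and 1 high of 75. The high gene was Mrps26, with 1145, 4430 and 2294 counts (2.83).

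Further families of housekeeping mRNAs lay close to the median gene. Translation factors stood at 0.864 (3 low and 2 high of 62), with Eef1a1, the main elongation factor, at 0.518 on 22836, 16209 and 27924 counts. Proteasome subunits stood at 0.791 (3 low and 1 high of 47), where Psma4 was lowest at 0.209 with 2182, 625 and 2961 counts and Psmb11 highest at 3.11. Chaperones had a median of 0.890 with 6 low and 6 high of 70 (8.57% each, beside 6.27% low and 8.33% high over all genes). They ran from Hspe1 at 0.348 to Hspa4l at 3.52, and Hsp90ab1, with 46994, 90410 and 79851 counts, was at 1.41. Aminoacyl-tRNA synthetases stood at 0.844 (2 low and 1 high of 37). The low genes included Lars2 at 0.374, and without it the median was 0.847. Tubulins (0.894 over 17 genes) had no gene past either limit.

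The mRNAs of SR splicing factors, whose proteins are stored in nuclear speckles, and of hnRNPs stood near the median gene in Ensembl-ID counts. The 11 SR factor entries had a median of 0.990, the 20 hnRNP genes 0.963, and no member of either was high or low. Srsf5 was the highest SR factor at 1.42 with 2169, 4231 and 4683 counts, and Srsf9 the lowest at 0.637. Hnrpdl was the highest hnRNP gene at 1.42 and Hnrnpab the lowest at 0.620. The CLK kinases, which phosphorylate SR proteins, were somewhat higher, with Clk2 at 2.03 (316, 877 and 1020 counts), Clk4 at 1.46, Clk1 at 1.42 and Clk3 at 0.965. The CLK median of Ensembl-ID counts was 1.44, and it was higher, 1.68, in Tfrc RIA-seq over the same control. In Genome counts all 4 CLK genes were above the median gene (1.03 to 1.79, median 1.40), whereas 1 of 6 SR factors was (median 0.844). The CLK median of Genome counts in Tfrc RIA-seq was 1.05. DEAD and DEAH helicases had a median of 1.03 with 2 high and 2 low of 52.

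Classes somewhat above the median gene included membrane and DNA-binding proteins. Of 197 solute carriers, 22 were high (11.2%) and 3 low, with a median of 1.22 (1.23 in Tfrc RIA-seq over the same control). Slc2a3, a glucose transporter, had 4411, 9519 and 8326 counts (1.58), and Slc17a9 was highest at 4.42 on 20 control counts. Of 303 zinc finger (Zfp) genes, 33 were high (10.9%) and 6 low, with a median of 1.16 (1.19 in Tfrc RIA-seq). The shares of high genes in both classes were not far above the 8.33% over all genes. Zfp457 had 402, 4085 and 2760 counts and the highest relative fold of the class, 7.42, while Zfp42, the ES cell marker Rex1, had 3981, 2847 and 7501 (0.522). Kinesins (1.09 over 29 genes) and ubiquitin proteases (1.05 over 45 genes) had no gene past either limit. Collagens (13 genes, 2 high) stood at 1.20 and Rab GTPases (3 high and 3 low of 45) at 0.845. Of 24 Hox genes listed, 4 passed the limit, and of 110 olfactory receptors 1 did.

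In Genome counts, translation factors (1.00), aminoacyl-tRNA synthetases (1.00), proteasome subunits (0.993), chaperones (0.989), solute carriers (1.05), ubiquitin proteases (1.02), kinesins (1.04) and Rab GTPases (1.05) had medians between 0.989 and 1.05. Cytosolic ribosomal proteins stood at 0.884 (4 low and 1 high of 66), respiratory chain subunits at 0.809, mitochondrial ribosomal proteins at 0.915, hnRNPs at 0.887, helicases at 0.950, tubulins at 0.703 (2 low of 6), replacement histones at 0.524 (3 low of 6) and Zfp genes at 0.898 (18 low and 5 high of 134). Glycolysis enzymes, below the median gene in Ensembl-ID counts, stood at 1.22 (1 low of 17). Across 7408 genes that passed the limit in both kinds of count, the relative folds were nearly unrelated (Spearman's rho 0.0635, a description over genes that share both libraries). Of the 414 genes high in Ensembl-ID counts, 21 (5.07%) were also high in Genome counts, beside 2.55% of all 7408 genes. These 21 were 11.1% of the 189 high in Genome counts, beside 5.59% of all 7408 genes high in Ensembl-ID counts. Of the 269 genes low in Ensembl-ID counts, 45 (16.7%) were also low in Genome counts, beside 6.76% of all 7408 genes. These 45 were 8.98% of the 501 low in Genome counts, beside 3.63% of all 7408 genes low in Ensembl-ID counts. Mir17hg was among the 21 high in both.

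Pseudogenes named with the suffix -ps had medians below the median gene in both kinds of count. In Ensembl-ID counts 155 of 277 passed the limit, 36 were low (23.2%), 4 were high and the median was 0.738. The 97 that derive from ribosomal protein genes had a median of 0.707, close to the 0.698 of their parent class. Actg-ps1, an actin pseudogene, had 3961 counts in the control, 17 in Malat1 RIA-seq and 47 in the Tfrc library, the lowest relative fold of all (0.00313), and Ppp4r1l-ps had 56, 367 and 329 (4.79). In Genome counts 12 of 28 were low, none was high and the median was 0.557. Reads of processed pseudogenes and of their parent genes may not be separable. Predicted Gm genes lay on both sides, with 210 high (15.5%) and 205 low (15.1%) of 1354, whereas RIKEN clones had 107 high and 37 low of 771.

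Protein-coding genes were then grouped by structure, which the choice of genes had not used. The median relative fold of Ensembl-ID counts was higher in genes with longer merged exons, from 0.704 up to 1000 nt (575 genes) through 0.852, 0.951 and 1.04 to 1.16 above 6000 nt (2639 genes). Genome counts gave 0.742 up to 1000 nt and 1.05 above 6000 nt. Histones, ribosomal proteins and respiratory chain subunits are short (median merged exons of 530, 1439 and 1287 nt). Their medians of 0.438, 0.698 and 0.696 can be set beside 0.704 for all coding genes up to 1000 nt and 0.852 for those of 1000 to 2000 nt. Without the histones, 524 coding genes up to 1000 nt had a median of 0.730 with 20.0% low. Genes with 1 merged exon other than the histones stood at 0.867 (467 genes). In Tfrc RIA-seq over the same control the medians ran from 0.788 to 1.12.

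**Figure D5:**
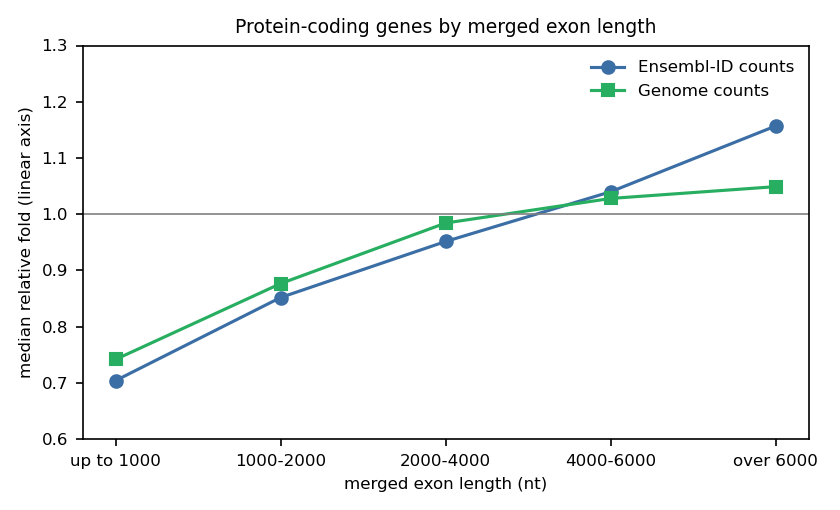
Median relative fold (linear y axis) of protein-coding genes in 5 bins of merged exon length (x axis), for Ensembl-ID counts (circles) and Genome counts (squares). Medians of both kinds of count are higher in each longer bin, from the shortest (0.704 and 0.742) to the longest (1.16 and 1.05).

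By total intron length, the median of Genome counts was 0.537 for the 46 coding genes without an intron, 0.781 up to 5000 nt of introns, 0.921 up to 20000 nt, 1.05 up to 100000 nt and 1.06 above that. By level, it was 0.634 below 3 CPM (1284 genes) and 1.17 above 100 (80 genes), and genes of the lowest level pass the limit only where the control count is relatively high. Ensembl-ID medians by intron length ran from 0.803 to 1.11. In GC content the Ensembl-ID medians moved little, from 1.06 below 42% GC to 0.915 above 54%. Medians by chromosome lay between 0.925 (chromosome 15) and 1.06 (chromosome 16) in Ensembl-ID counts.

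Genes near Malat1 were examined by distance. Within 100 kb of the lower coordinate of Malat1, 9 genes other than Malat1 passed the limit in Ensembl-ID counts and 2 of them were high, Neat1, whose lower coordinate is 29.0 kb away, and Gm20417. Gm20417 lies within Malat1 on the opposite strand and had 94, 322 and 493 counts (2.501), and the use of strand is not stated, so its reads cannot be told apart from those of Malat1. The coding genes named next were not high. Frmd8 had 92, 112 and 149 counts (0.889), Ltbp3 had 23, 21 and 57 (0.667) and Tigd3 had 23, 44 and 45 (1.40). Within 1 Mb, 68 genes passed the limit with a median of 0.900, and 6 were high and 7 low. The share of high genes in this window was close to the 8.33% over all genes, of which 6.27% were low. The other high genes were Rin1 (35 and 115 counts), Ccdc85b (69 and 191), Map4k2 (28 and 86) and Rasgrp2 (161 and 460), and the low genes included Cfl1, for the actin regulator cofilin, with 5140 and 2668 counts (0.379). In Genome counts 29 genes in this window passed, none was high and 6 were low, beside 2.52% high and 8.44% low over all genes.

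Genes at the ends of the range were taken from the 6697 with 100 or more Ensembl-ID counts in both libraries. The highest relative folds of Ensembl-ID counts were those of Gm5121 (9.49), Zfp457 (7.42), Gm7609 (7.30), Gm16869 (7.05), Ap1s3 (5.65), Gm53 (5.03), Gm10800 (4.89), Gm17496 (4.76), Zfp353 (4.75) and Gm17066 (4.67). Ap1s3, for a subunit of the AP-1 clathrin adaptor, had 274 counts in the control, 2119 in Malat1 RIA-seq and 1845 in the Tfrc library. The 10 lowest were Actb, Gm12715, Actg1, Gm8399, Lrrc58, Gm12913, Idh3g, Hist1h3g, Psma4 and Gm15662, from 0.00859 to 0.217. Idh3g, for a subunit of isocitrate dehydrogenase, had 3271, 625 and 1273 counts (0.140).

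Of the 1155 genes with 100 or more Genome counts in both libraries, the 10 highest lay close together, from Trp53 (1.86), U2af2 (1.81), Foxo3 (1.80), Nptn (1.80), Nudcd3 (1.77), Abl2 (1.77), Nap1l4 (1.74), Nek7 and Hnrpdl (both 1.73) to Dis3l2 (1.71). Trp53, for the p53 protein, had 119 counts in the control, 772 in Malat1 RIA-seq and 568 in the Tfrc library, and U2af2, for a factor that recognises the 3′ splice site, had 158, 998 and 820. Among the lowest were Camk1d, Myo3a, Cd44, Cct6a, Gm11407, Mir5105, Gm11425, Gphn and Gm11518, with relative folds between 0.174 and 0.298.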

How the data were processed

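The counts deposited by the authors are whole numbers of reads per gene and library, not normalized, with 1 library for each of the 3 conditions. The submitters' processing notes name Bowtie 0.12.7 and the builds mm9 and NCBIM37. The counting rule, the use of strand and the meaning of the reference name Genome are not given in the sources used here. A gene with no read has no row. The GENCODE annotation of NCBIM37 supplied coordinates, exons and types for 98.6% of 24080 Ensembl-ID genes and 96.6% of 21733 Genome entries.

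Folds are ratios of count shares of the library total, with 95% counting intervals computed on a log scale. Genes needed 10 counts in both. Intervals of folds were tested on simulated Poisson counts, the same assumption from which the intervals are computed. That test checks the computation and cannot show how well the intervals cover reads that are not independent. Classes were set by symbol, with U3 among the snoRNAs. The members, classes and lists were chosen with earlier results of these data known. The genes named are Malat1 and Actb, for each class the member with the most counts and those with the highest and lowest relative fold, all lncRNAs, genes near Malat1, and the 10 highest and lowest genes with 100 counts in both. Some genes that this rule names are not reported here. Other members of the small classes, and the genes counted outside the limit, were named after their values were seen. Alternatives were other totals, TMM factors (edgeR 4.0.16), minimums of 1 and 50 counts, 75th percentile scaling, a pseudocount of 1, Tfrc RIA-seq as the control and classes by gene type. An alternative chosen after seeing the data kept only calls whose counting interval also lay past the median gene. Python 3.11.15, numpy, pandas and matplotlib were used.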

Additional observations from a re-analysis of the deposited data

Results flagged for a closer look

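Malat1 RIA-seq and Tfrc RIA-seq were each set against the same Actb RIA-seq library, with 1 library per condition. The relative folds below lay on opposite sides of the median gene. Single genes were listed only if high or low in Malat1 RIA-seq, and classes only if both medians lay well apart. Smaller differences, such as that of DEAD and DEAH helicases in Ensembl-ID counts (1.03 and 0.899), were left out. None of these differences was tested. The median of the 13 mitochondrial mRNAs was 0.741 in Malat1 RIA-seq and 1.54 in the Tfrc library. The median of the 4 copies of 7SK was 1.80 and 0.880, respectively. Genome counts of Mir17hg were 78 in the control, 1073 in Malat1 RIA-seq and 195 in the Tfrc library, with relative folds of 3.94 and 0.625. Gm5121, a predicted gene on chromosome 9, had 104, 1352 and 127 Ensembl-ID counts, with relative folds of 9.49 and 0.688. Col25a1, a collagen gene, had 16, 24 and 85 Genome counts, with relative folds of 0.430 and 1.33.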

How the results depend on the processing

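No paired analysis was possible because each condition had 1 library, and for the same reason no library could be left out. Of 166 values recomputed under the alternatives, 108 were classed as the same within their limits, 53 as moved and 5 as reversed. This sorting did not class every median that crossed 1 as reversed, so it understates changes of direction. Named pseudogenes in Genome counts went from 0.557 to 1.35 with Tfrc RIA-seq as the control and were classed as moved. Zfp genes in Genome counts went from 0.898 to 1.12 with a minimum of 50 counts and were classed as the same. Class medians that kept their side of 1 are counted below. With the total of the same kind of count, the fold of Malat1 was 6.80 and the median folds were 1.66 for Ensembl-ID and 0.994 for Genome counts. Without the 10 genes with the most counts these values were 3.61, 0.878 and 2.24, with TMM scaling 3.21, 0.781 and 1.99, and with Tfrc RIA-seq as the control 1.51, 1.11 and 1.28. Relative folds do not depend on the total. High and low genes numbered 2654 and 1954 (Ensembl-ID) and 1633 and 2499 (Genome) with a minimum of 1 count, and 513 and 370, and 3 and 98, with a minimum of 50. With a pseudocount of 1 and 10 counts in either library there were 1840 high genes in Ensembl-ID counts, and 1002 high and 1121 low genes in Genome counts. With Tfrc RIA-seq as the control there were 383 high and 489 low genes in Ensembl-ID counts and 388 high genes in Genome counts.

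With that control the Ensembl-ID medians were 0.499 for mitochondrial mRNAs, 1.01 for named pseudogenes, 1.22 for lncRNAs, 1.14 for Snhg genes, 2.20 for 7SK, 0.646 for replication-dependent histones and 0.946 for cytosolic ribosomal proteins, and 31 of 60 class medians lay on the same side of 1 as with the Actb control. The Genome medians were 1.35 for named pseudogenes, 1.67 for Snhg genes, 1.27 for snoRNAs and 1.28 for replication-dependent histones. With a minimum of 50 counts, 47 of 57 class medians stayed on their side of 1. Some class medians lay outside the counting interval of the gene nearest the reported class median. In Ensembl-ID counts these were 2.34 for lncRNAs, 1.87 for 7SK and 3.085 for the class of microRNA symbols. In Genome counts they were 0.804 for snoRNAs, 0.262 for microRNAs and 0.988 for CLK kinases. Other class medians crossed 1 inside that interval, such as Zfp genes in Genome counts (1.12) and collagens in Ensembl-ID counts (0.968). Both microRNA values and the CLK value rest on 1 gene each, and the Ensembl-ID gene is typed as a lincRNA. With classes set by gene type, Ensembl-ID medians were 1.501 for lncRNAs and host genes, 1.81 for 7SK and other structural RNAs and 0.879 for microRNAs. The Genome median of lncRNAs and host genes was 0.953 by gene type (260 genes) and 1.275 by symbol (17 genes). The cause of these changes was not tested.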
